A study of Mus musculus with 9 samples.

Results

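The cytosolic ribosomal proteins are the protein parts of the ribosome outside mitochondria, and their transcripts were examined in mouse embryoid bodies with or without an induced *Nrf1* transgene. Members were chosen by gene symbol, as Rpl or Rps followed by a number with at most a letter and a further digit, together with *Rplp0*, *Rplp1*, *Rplp2* and *Rpsa*, leaving out symbols that end in -ps. This gave 89 of the 56691 genes in each count table, 36 of the small subunit and 53 of the large subunit. A filter on low counts kept 88 of them among the 16903 genes tested. *Rps12l1* was listed at 0 in every library.

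All cells came from BVSC pluripotent stem cells (PSCs), a mouse line with Blimp1-mVenus and Stella-CFP reporters, that had been differentiated as embryoid bodies and sorted at day 5 by the Blimp1 reporter (BV). Every culture carried the doxycycline-inducible pInducer20 (p20) vector and received 1.5 μg/mL doxycycline from day 2 to day 5. The vector held an *Nrf1* cDNA cloned from mouse PSCs in the cells labelled NRF1 overexpression (OE), and no cDNA in the controls (Ctrl). There were 2 libraries of BV+ OE, 2 of BV+ Ctrl, 3 of BV− OE and 2 of BV− Ctrl, made from poly(A) RNA. The infected cells came from a single reporter line, and whether clones or pools were used is not given in the sources used here. Replicates are described as biological without saying that each came from its own culture, so the p-values measure the spread between these libraries, which may be partly technical.

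A ribosome holds a single copy of most of these proteins, while the P-stalk that recruits elongation factors holds several copies of its acidic proteins. Transcripts for these proteins are abundant in dividing cells. Most start at a C followed by further pyrimidines, the 5′ terminal oligopyrimidine (TOP) motif, through which mTOR and LARP1 set their translation. The mouse genome also holds many processed pseudogenes of these genes, which are nearly identical in sequence, so that a short read may fit several places.

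The annotated start sites were searched for such a run. RefSeq promoters on GRCm38.p6 were at hand for 64 of the 89 members, in 76 entries that run from 250 bases before to 50 bases after the annotated start. A C at the start with at least 4 further pyrimidines was found in 14 of the 76 member entries (18.4%), against 2.51% of all 32851 entries. Reads were counted on GRCm39, so these coordinates belong to the promoter entries alone. The windows below hold 15 bases before the start and 15 from the start on. They are shown because they carry the TOP-like run, given in capitals from the first transcribed base: *Rps6* at chr4:86857353-86857382 on the minus strand, *Rpl38* at chr11:114668565-114668594 on the plus strand, *Rplp2* at chr7:141447636-141447665 on the plus strand, *Rpl35* at chr2:39005117-39005146 on the minus strand, *Rpl15* at chr14:18270972-18271001 on the minus strand and *Rps18* at chr17:33955651-33955680 on the minus strand.
Rps6: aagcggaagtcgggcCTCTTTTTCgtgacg
Rpl38: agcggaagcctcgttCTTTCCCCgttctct
Rplp2: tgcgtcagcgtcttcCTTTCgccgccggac
Rpl35: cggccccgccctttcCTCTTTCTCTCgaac
Rpl15: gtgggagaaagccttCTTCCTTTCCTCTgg
Rps18: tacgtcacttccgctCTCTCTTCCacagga

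NRF1 is a transcription factor known to bind a GC-rich palindrome, given in capitals in the windows of *Rpl37a* and *Rpl10a* below. Searched on both strands, these letters stood in 2 of the 76 member entries (2.63%) and in 0.971% of all entries. A looser form, with any base at the fifth position and so including the first, stood in 6 member entries (7.89%), those of *Rpl10a*, *Rpl37a*, *Rpl7l1*, *Rps15*, *Rps16* and *Rpsa*, and in 4.6% of all entries. TATAAA stood in 10.5% of the member entries and in 13.6% of all. The 2 exact matches are shown because their genes behaved differently below, with the match in capitals. It starts 8 bases from the annotated start inside the *Rpl37a* transcript, counting the start as 1 (chr1:72711257-72711286, plus strand), and 4 bases before the start of *Rpl10a* (chr17:28328551-28328580, plus strand).
Rpl37a: gtctaaaaccGCGCATGCGCattgcgtccc
Rpl10a: ctctatttgaGCGCATGCGCaaagcgctct

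Each library held between 13702162 and 19625460 counts. *Nrf1* itself, the gene on the vector, was at 95.7 and 99.4 CPM (counts scaled to 1000000 per library) in BV+ OE and at 91.1 and 90.4 CPM in BV+ Ctrl, a log2 fold change of 0.10 ± 0.10 (SE; edgeR quasi-likelihood test, adjusted p = 0.489). In BV− cells it was at 119, 122 and 126 CPM in OE and at 99.1 and 105 CPM in Ctrl (0.26 ± 0.10, edgeR adjusted p = 0.0718). The transgene was therefore not separated from Ctrl by the test in either population, and OE below is the name on the label. *Prdm1*, which encodes BLIMP1, lay between 53.3 and 62.8 CPM in BV+ cells and between 42.4 and 62 CPM in BV− cells. Of 10 primordial germ cell markers, 0 were higher in BV+ than in BV− cells in either condition (edgeR; 0 also at an unadjusted p under 0.05 and 0 by DESeq2), and 5 were lower in BV+ cells at OE. Over all genes tested, 1.1% were higher at Ctrl, and 9.9% were higher and 3.85% lower at OE. The summed level of the germ cell markers was 2316 to 2466 CPM in BV+ cells, 2677 to 2843 CPM in BV− Ctrl and 3269 to 3374 CPM in BV− OE. Most of each sum was *Pou5f1*, *Dppa5a* and *Nanog*, so the markers at low levels weigh little in it. The labelled sort was thus not mirrored by higher germ cell markers, and the cells are named here by the reporter alone. Summed mesoderm markers were at 18.3 to 38.4 CPM in BV+ and 7.44 to 14 CPM in BV− cells, endoderm markers at 10.9 to 21.5 CPM and neuroectoderm markers at 90.3 to 124.7 CPM in all libraries.

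To see how much of the messenger pool these genes took, their counts were summed in each library. Members held 4.99% and 4.38% of the counts in BV+ OE, and 3.85% and 3.72% in BV+ Ctrl. In BV− cells they held 5.06%, 5.74% and 5.14% in OE, and 3.90% and 4.16% in Ctrl. The OE libraries were thus higher than the Ctrl libraries of the same population without overlap. Group means were 4.69% ± 0.44 (SD, n = 2) in BV+ OE, 3.79% ± 0.09 (n = 2) in BV+ Ctrl, 5.31% ± 0.37 (n = 3) in BV− OE and 4.03% ± 0.18 (n = 2) in BV− Ctrl. Both subunits contributed, with means of 2.29% small and 2.39% large in BV+ OE, and 1.82% and 1.97% in BV+ Ctrl. In such bulk samples, fewer cells of a type and less RNA per cell cannot be told apart.

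**Figure D1:**
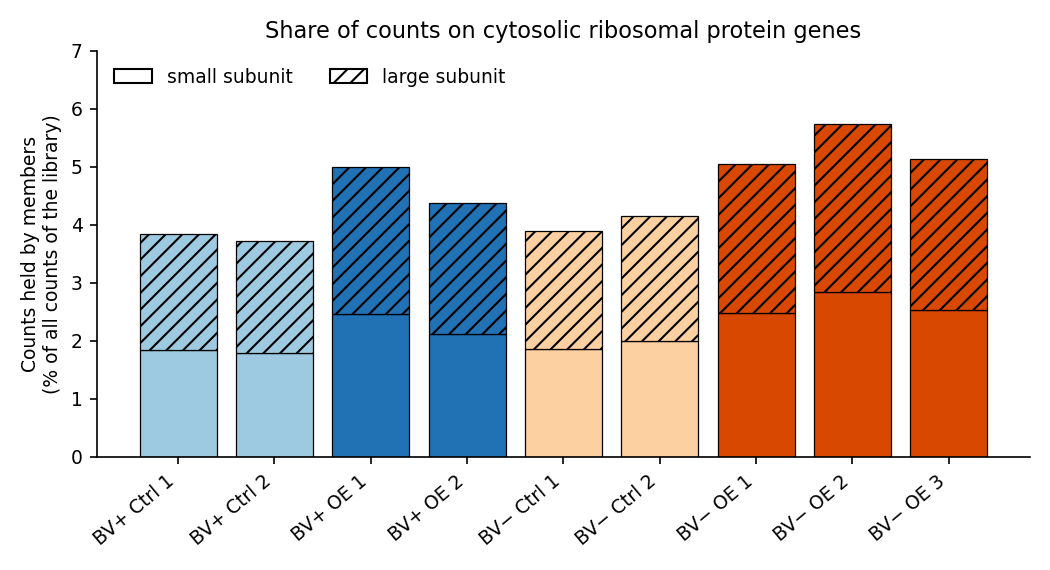
Counts held by the 89 members in each of the 9 libraries, as a percentage of all counts of the library, with the small subunit (plain) and the large subunit (hatched) stacked. The 5 OE libraries lie between 4.38% and 5.74%, above the Ctrl libraries at 3.72% to 4.16%.

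Members differed widely in level. Levels between genes were read on the FPKM scale, which divides by a length assigned to each gene. The mean over the 4 groups ran from 1.19 for *Rpl3l*, the paralog known from striated muscle, to 2350 for the stalk protein gene *Rplp1*. *Rps15* at 1980 FPKM and *Rpl32* at 1670 FPKM followed at the top. *Rpl5* at 7.06 FPKM and *Rps13* at 3.5 FPKM stood just above *Rpl3l* at the bottom. The lengths implied by counts and FPKM were 499 bases for *Rplp1* and 630 for *Rps15*, but 3921 for *Rpl5* and 2691 for *Rps13*. The median member transcript was 910 bases, so this ranking rests in part on the lengths used. The median member was at 118 to 126 FPKM in the 4 Ctrl libraries and at 143 to 165 FPKM in the OE libraries. The 10 members with the most counts, led by *Rpl4*, *Rpl8*, *Rps2* and *Rpsa*, held 38.5% to 40% of the members' counts in every library.

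Reads on pseudogenes bear on these levels. The tables list 321 rows named after members with the ending -ps, and these held 0.398% to 0.599% of a library's counts, or 9.56 to 10.9 per 100 counts on members. For several members the copies outnumbered the gene. *Rps6*, the protein that S6 kinase phosphorylates, had 379 to 579 counts per library against 1125 to 1710 on its 4 pseudogene rows. *Rpl3*, which lies near the peptidyl transferase centre, had 1024 to 5532 counts against 8827 to 13363 on its 2 pseudogene rows. *Rpl5* had only 9 to 20 counts on its 2 pseudogene rows beside 287 to 626 of its own. How reads that fit several places were counted is not given in the sources used here, so the level of a member with close copies is uncertain.

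In BV+ cells, the transcripts of 23 members rose with OE and 1 fell, *Rps12*. Those that rose came from both subunits, 11 of the 35 tested small subunit genes and 12 of the 53 large subunit genes. Over all genes tested, 6.24% were higher and 1.78% lower (edgeR quasi-likelihood test, Benjamini-Hochberg adjusted p under 0.05). The median log2 fold change of the members was 0.31, with 74 of 88 above 0, beside 0.04 over all genes tested. Groups did not overlap, with OE higher, for 62 members (70.5%), against a background of 38.1%, and with OE lower for 8, against 32%.

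*Rpl34*, of the large subunit, was at 187 and 100 CPM in BV+ OE and at 48.8 and 54.1 CPM in BV+ Ctrl, a log2 fold change of 1.48 ± 0.27 (SE, edgeR adjusted p = 0.0165). *Rpl29*, a large subunit protein also described as heparin-binding, was at 44.7 and 28.3 CPM against 15.0 and 17.1 CPM (1.18 ± 0.26, edgeR adjusted p = 0.0304). *Rps3a1*, of the small subunit, was at 560 and 322 CPM against 205 and 212 CPM (1.08 ± 0.22, edgeR adjusted p = 0.0224). In all 3 the first OE library was well above the second, and both were above Ctrl. *Rps7*, of the small subunit, was at 240 and 160 CPM against 114 and 118 CPM (0.79 ± 0.19, edgeR adjusted p = 0.034). *Rplp0*, the scaffold of the P-stalk, was at 1720 and 1300 CPM against 998 and 958 CPM (0.63 ± 0.14, edgeR adjusted p = 0.031). The other 18 members that rose had log2 fold changes of 0.38 to 0.62.

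*Rps12* was the exception, at 30.6 and 25.8 CPM in BV+ OE and at 41.6 and 53.7 CPM in BV+ Ctrl (fell by 0.76 ± 0.19 on the log2 scale, edgeR adjusted p = 0.037). It has 24 pseudogene rows, which held more counts than the gene in every library, and summed with them the fall was 0.21 with an adjusted p of 0.299, no longer past the threshold. *Rps7* summed with its 3 rows gave 0.39 (adjusted p = 0.0562) and *Rpl34* summed with its 2 rows gave 0.60 (adjusted p = 0.0295). *Rps3a1* has no -ps row, but its near copies *Rps3a2* and *Rps3a3* are members themselves, and summed with both it stood at 0.31 ± 0.13 (edgeR adjusted p = 0.132), no longer past the threshold. *Rpl29* has too few counts on its rows for the sum to differ.

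In BV− cells, 45 members rose with OE and 0 fell, against 10.2% higher and 6.98% lower over all genes tested (edgeR; 2 members were lower at an unadjusted p under 0.05, and DESeq2 called 1 lower). The members that rose were 20 of 35 small subunit genes and 25 of 53 large subunit genes. Their median log2 fold change over all 88 was 0.38, with 76 above 0, beside 0.01 over all genes tested. For 61 members (69.3%) the OE libraries were higher without overlap, against a background of 29.4%, and for 6 they were lower, against 27.6%.

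*Rps14*, of the small subunit and known from its loss in the 5q− syndrome, was at 1610, 2070 and 1710 CPM in BV− OE and at 1010 and 1050 CPM in BV− Ctrl (0.81 ± 0.13). *Rpl18*, of the large subunit, was at 991, 1250 and 1130 CPM against 689 and 707 CPM (0.69 ± 0.11). *Rps16*, of the small subunit, was at 110, 121 and 117 CPM against 72.6 and 72.7 CPM (0.67 ± 0.14). *Rps2*, which lies near the messenger's entry to the small subunit, was at 2360, 2970 and 2630 CPM against 1630 and 1700 CPM (0.67 ± 0.13). *Rpl38*, known for its part in the translation of Hox messengers, was at 77.7, 95.2 and 77.8 CPM against 52.3 and 53.3 CPM (0.66 ± 0.13). Each of the 5 had an edgeR adjusted p of 0.0317, and in each all OE libraries were above all Ctrl libraries.

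**Figure D2:**
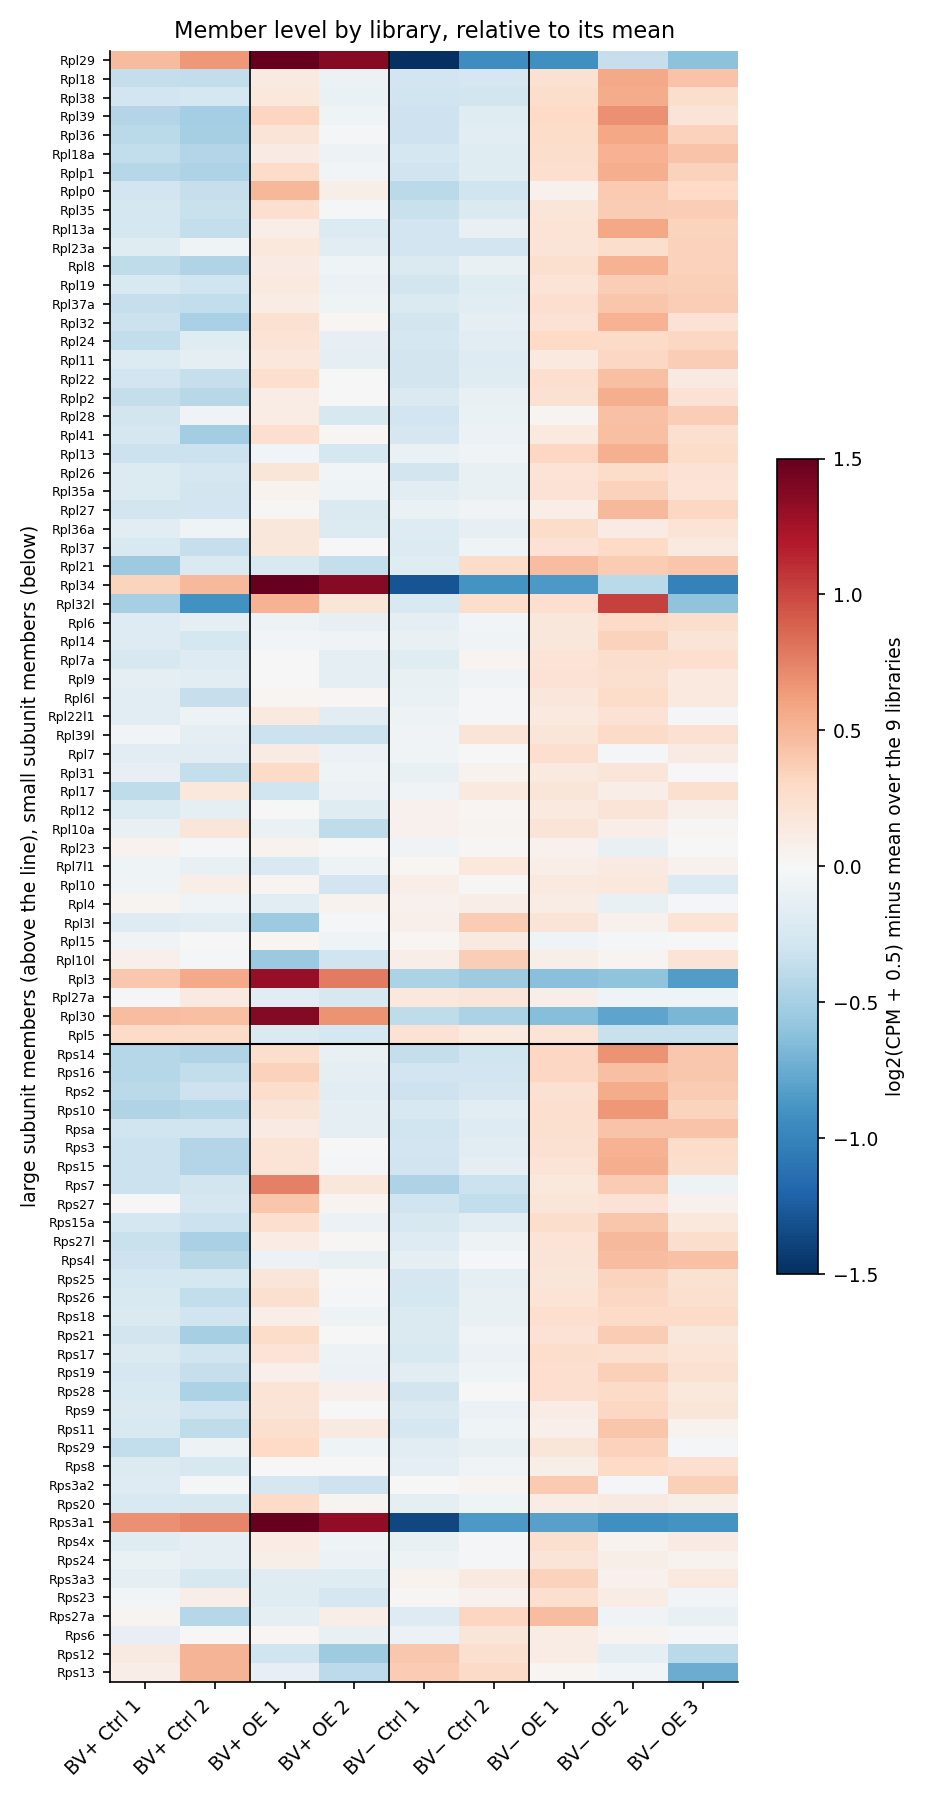
Level of 87 of the 88 tested members (rows) in the 9 libraries (columns), as log2(CPM + 0.5) minus the member's mean over the libraries; red is above and blue below that mean. Most rows are red in the OE columns of BV− cells and blue in the Ctrl columns, while *Rps3a1*, *Rpl29*, *Rpl30*, *Rpl34* and *Rpl3* are red in all 4 BV+ columns.

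The BV+ and BV− comparisons contrast no library in common, but all 9 libraries shared a single fit and its estimate of spread. Their calls are thus not independent. Both called 17 of the members that rose, among them *Rplp0*, *Rplp1*, *Rpl8*, *Rps3* and *Rps14*. This was 73.9% of the 23 in BV+ cells, where 51.1% of all tested members rose in BV− cells. It was 37.8% of the 45 in BV− cells, where 26.1% of all tested members rose in BV+ cells. Whether the effect differed between populations was tested directly as a difference of the 2 OE effects. The test called 0 members (edgeR; 4 higher and 3 lower at an unadjusted p under 0.05, 0 by DESeq2), beside 0% of all genes tested, and the median difference was −0.09. At the study's cut-offs it called 4 members (4.55%) against 4.48% of all genes.

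The libraries also differed in how level followed base composition and length, and this moved with the result. Across 12702 genes, the deviation of a library from the mean correlated with GC content (Spearman) at −0.62 to −0.53 in the 4 Ctrl libraries, at 0.35 and −0.02 in BV+ OE, and at 0.07, 0.72 and 0.59 in BV− OE. Members are short, with a median transcript of 910 bases against 2827.5 for all genes tested with an annotation, and their median GC content of 51.6% was close to the 50.1% of those genes. Across the 88 members the log2 fold change with OE itself correlated with GC content, with rho of 0.41 in BV+ cells and 0.48 in BV− cells, as a description over genes that share the same libraries. When the fit removed a smooth trend over GC content and length from every library, the median of the members became 0.10 in both populations, beside 0.02 (BV+) and −0.03 (BV−) over all genes. The members' correlation with GC content then became −0.275 in BV+ cells and −0.461 in BV− cells. Within the members the dependence was thus turned in sign rather than removed. In BV+ cells 19 members were then higher and 3 lower, against 8.65% and 3.73% of all genes in that fit, and 14 of the 22 were among the 24 called with TMM alone. In BV− cells 15 were higher and 2 lower, against 2.86% and 1.47% of all genes, and 13 of the 17 were among the first 45. *Rps3a1* (1.11) and *Rps7* (0.74) stayed close to their values in BV+ cells. There *Rpl34* came down from 1.48 to 1.14 and *Rpl29* from 1.18 to 0.69. Each of these 4 stayed past the threshold. *Rps2* (0.21, adjusted p = 0.122) and *Rpl38* (0.08, adjusted p = 0.618) lost the call in BV− cells. The part of this trend in the rise was not tested.

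**Figure D3:**
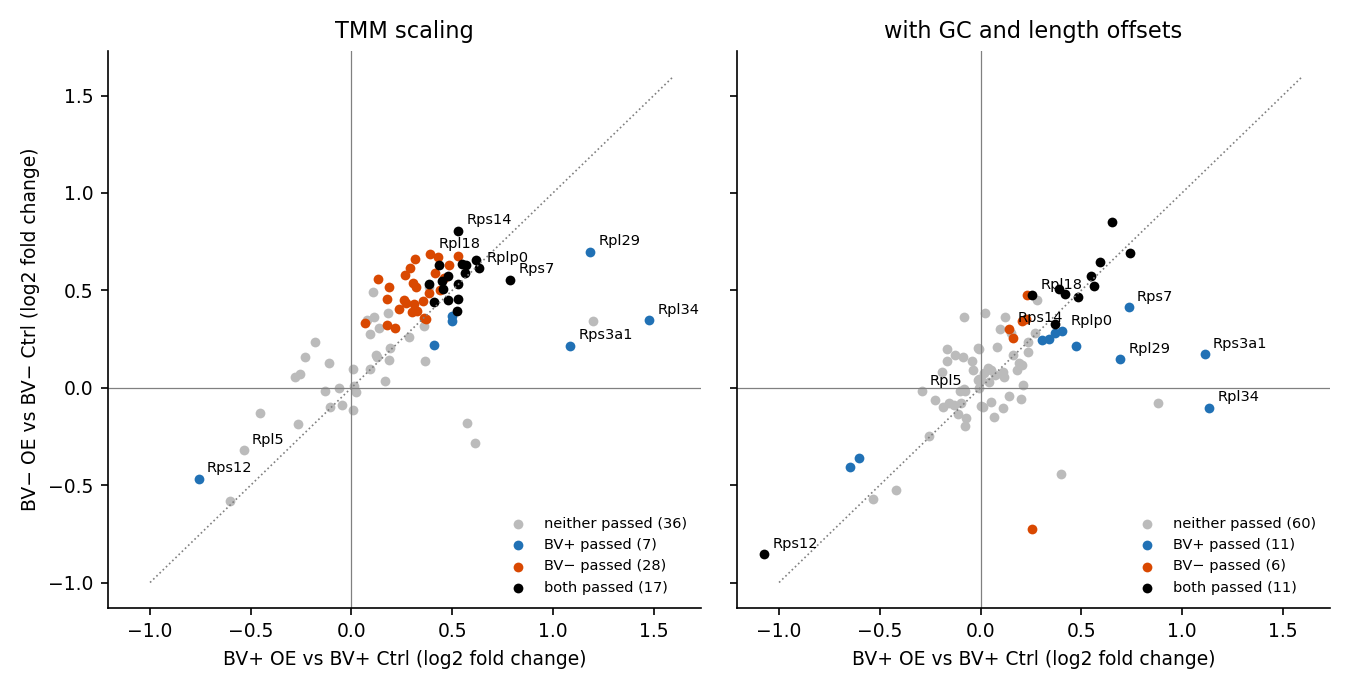
Each point is a tested member, with its log2 fold change for OE against Ctrl in BV+ cells (x axis) and in BV− cells (y axis), by edgeR with TMM scaling (left) and with GC and length offsets (right); colours show where the adjusted p was under 0.05 and the dotted line marks equal change. With TMM scaling 17 members passed in both, 7 in BV+ alone and 28 in BV− alone, and most points move towards 0 with the offsets.

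The counts of calls also rested on single libraries. For fits without a single library the share of all genes called is not given here. Such counts therefore do not show whether the members moved more than other genes. In BV+ cells, 0 members passed without the first OE library or without either Ctrl library, 5 without the third BV− OE library, 15 without either BV− Ctrl library, and 44 without the second OE library or the second BV− OE library, while the median stayed between 0.19 and 0.48. In BV− cells, 0 passed without the third OE library or without any of the 4 Ctrl libraries of either population, and 53 passed without the first OE library, while the median stayed between 0.31 and 0.46. At the cut-offs used in the study, an unadjusted p under 0.05 and a log2 fold change beyond 0.58 either way, 10 members (11.4%) were called in BV+ cells against 17% of all genes, and 16 members (18.2%) in BV− cells against 16% of all genes. By that rule the members' share was thus below or near the background.

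By role, the 3 stalk protein genes come first. *Rplp1* was at 1430 and 1150 CPM in BV+ OE against 881 and 858 CPM in Ctrl (0.57 ± 0.13, edgeR adjusted p = 0.0304), and at 1410, 1720 and 1500 CPM in BV− OE against 957 and 1040 CPM (0.63 ± 0.12, edgeR adjusted p = 0.0317). *Rplp2* rose in BV− cells (0.50 ± 0.11, edgeR adjusted p = 0.0317) and stood at 0.44 ± 0.12 in BV+ cells, just outside the threshold (edgeR adjusted p = 0.0506). *Rplp0* also rose in BV− cells (0.61 ± 0.13, edgeR adjusted p = 0.0317). With the GC and length offsets only *Rplp0* in BV+ cells, at 0.41, kept an adjusted p under 0.05 among these 6 tests.

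*Rpsa*, the laminin receptor precursor that is also a small subunit protein, was at 2310, 2650 and 2640 CPM in BV− OE against 1600 and 1710 CPM in Ctrl (0.61 ± 0.11, edgeR adjusted p = 0.0317), and kept the call with the offsets (0.48, adjusted p = 0.0279). In BV+ cells it was at 2140 and 1780 CPM against 1600 and 1600 CPM (0.29 ± 0.11, edgeR adjusted p = 0.109). *Rps19*, mutated in Diamond-Blackfan anaemia, was at 573, 617 and 563 CPM in BV− OE against 433 and 461 CPM (0.39 ± 0.10, edgeR adjusted p = 0.0338). Its BV+ libraries were at 509 and 454 CPM in OE and at 404 and 378 CPM in Ctrl (edgeR adjusted p = 0.086).

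*Rpl5* and *Rpl11* bind 5S ribosomal RNA together and restrain MDM2. *Rpl11* rose in BV− cells, with 258, 290 and 301 CPM in OE against 193 and 204 CPM in Ctrl (0.51 ± 0.12, edgeR adjusted p = 0.0317). *Rpl5* was at 30.9, 21.1 and 21.1 CPM in BV− OE against 31.3 and 29.6 CPM (−0.32 ± 0.16, edgeR adjusted p = 0.166), and at 23.0 and 22.3 CPM in BV+ OE against 32.8 and 32.8 CPM (−0.54 ± 0.18, edgeR adjusted p = 0.0781). With the offsets *Rpl11* lost its call in BV− cells (0.16, adjusted p = 0.347) and *Rpl5* stood at −0.016 there (adjusted p = 0.95). *Rps6* stayed between 24.9 and 30.9 CPM in all 9 libraries, *Rps27a*, which is made as a fusion with ubiquitin, between 29.5 and 55.0 CPM, and *Rpl10*, which joins the large subunit late in its assembly, between 46.5 and 63.3 CPM. These 3 did not pass the test in either OE comparison (edgeR adjusted p of 0.574 or more).

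Of the 2 genes with the exact NRF1 palindrome, *Rpl37a* rose in both populations. It was at 410 and 361 CPM in BV+ OE against 298 and 293 CPM, and at 452, 507 and 488 CPM in BV− OE against 327 and 340 CPM (0.38 ± 0.11 with an edgeR adjusted p of 0.0496, and 0.53 ± 0.10 with 0.0317). *Rpl10a* was at 80.0 and 65.6 CPM in BV+ OE against 79.2 and 97.4 CPM, and at 98.0, 91.7 and 87.0 CPM in BV− OE against 89.4 and 88.1 CPM (edgeR adjusted p = 0.182 and 0.772). With the offsets *Rpl10a* was lower with OE in BV+ cells (−0.65, adjusted p = 0.0165) and stood at −0.41 in BV− cells (adjusted p = 0.092), while *Rpl37a* kept both calls.

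Paralogs with an l in their symbol took varied shares of their parents. On the FPKM scale *Rpl10l*, known from testis, was at 181% to 366% of *Rpl10*, and *Rps27l*, known as a p53 target, was at 2110% to 3310% of *Rps27*. The *Rps27* row held only 124 to 255 counts per library, and levels of genes with close copies are uncertain, as said above. The lengths implied by counts and FPKM also differ, with 2053 bases for *Rpl10* and 1023 for *Rpl10l*. Such ratios therefore do not show which gene gives more transcript. *Rpl22l1* was at 28.2% to 39.9% of *Rpl22*, *Rpl39l* at 12.9% to 26.5% of *Rpl39*, *Rpl7l1* at 12.6% to 17.9% of *Rpl7*, *Rps4l* at 71.7% to 113% of *Rps4x* and *Rpl3l* at 0.8% to 6.96% of *Rpl3*. The ratio of *Rpl22l1* was lower in every OE library (28.2% to 31%) than in every Ctrl library (36.5% to 39.9%), and likewise that of *Rpl39l* (12.9% to 20.9% against 24.2% to 26.5%). Both parents rose with OE. *Rpl22* was at 715 and 601 CPM in BV+ OE against 490 and 472 CPM (0.45 ± 0.13, edgeR adjusted p = 0.0496), and *Rpl39* at 402 and 308 CPM against 237 and 225 CPM (0.62 ± 0.17, edgeR adjusted p = 0.0477). In BV− cells they rose by 0.51 and 0.65 on the log2 scale (edgeR adjusted p = 0.0317 and 0.0325), and each kept its calls with the offsets. *Rps27l* rose in both populations (0.48 ± 0.12 in BV+ with an edgeR adjusted p of 0.0405, 0.45 ± 0.11 in BV− with 0.0338). *Rps4l* rose in BV− cells, with 989, 1190 and 1170 CPM in OE against 780 and 852 CPM in Ctrl (0.45 ± 0.10, edgeR adjusted p = 0.0317), but with the offsets the call ended and the sign turned (−0.08, adjusted p = 0.647). The ratios were not tested.

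Between the sorted populations a small set of members stood apart. At Ctrl, 4 members were higher in BV+ than in BV− cells and 0 were lower (edgeR; 4 lower at an unadjusted p under 0.05, 0 by DESeq2), beside 1.1% higher and 0.0237% lower over all genes tested. At OE, 5 were higher and 13 lower, beside 9.9% and 3.85%. The 4 of Ctrl, *Rpl29* (ENSMUSG00000048758), *Rps3a1* (ENSMUSG00000028081), *Rpl34* (ENSMUSG00000062006) and *Rpl3* (ENSMUSG00000060036), were all among the 5 of OE, which added *Rpl30* (ENSMUSG00000058600). The 2 comparisons contrast no library in common, but rest on the same fit of all 9 libraries. At the study's cut-offs 5 members (5.68%) were called at Ctrl and 6 (6.82%) at OE, against 5.74% and 14.7% of all genes.

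*Rps3a1* was at 205 and 212 CPM in BV+ Ctrl against 49.2 and 69.8 CPM in BV− Ctrl (1.81 ± 0.23, edgeR adjusted p = 0.00299), and at OE at 560 and 322 CPM against 72.1, 67.4 and 68.2 CPM (2.67 ± 0.20, edgeR adjusted p = 8.9e-06). *Rpl29* was at 15.0 and 17.1 CPM against 2.96 and 5.34 CPM at Ctrl (1.94 ± 0.30, edgeR adjusted p = 0.00941), and at OE at 44.7 and 28.3 CPM against 5.42, 8.32 and 6.81 CPM (2.42 ± 0.25, edgeR adjusted p = 7.1e-05). *Rpl30*, of the large subunit, was at 60.1 and 59.7 CPM against 33.4 and 31.1 CPM at Ctrl (0.89 ± 0.19, edgeR adjusted p = 0.0533), and at OE at 114 and 69.5 CPM against 27.8, 25 and 26.8 CPM (1.79 ± 0.17, edgeR adjusted p = 4.04e-05). The populations did not overlap for any of the 3 in either condition.

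*Rpl34* was at 48.8 and 54.1 CPM in BV+ Ctrl against 15.4 and 20.5 CPM in BV− Ctrl (1.51 ± 0.28, edgeR adjusted p = 0.0262), and at OE at 187 and 100 CPM against 21.0, 29.0 and 18.8 CPM (2.65 ± 0.25, edgeR adjusted p = 3.6e-05). *Rpl3* was at 152 and 171 CPM against 82.4 and 79.3 CPM at Ctrl (1.00 ± 0.16, edgeR adjusted p = 0.0125), and at OE at 285 and 197 CPM against 74.3, 75.4 and 64.1 CPM (1.76 ± 0.15, edgeR adjusted p = 1.68e-05). These 2 genes have pseudogene rows that hold most of the family's counts. *Rpl34* held 21.2% to 46.5% of the summed counts in BV+ cells and 5.44% to 9.07% in BV− cells, and *Rpl3* held 20.8% to 34.1% and 7.5% to 11.8%.

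Summed with their rows, *Rpl34* differed by 0.06 at Ctrl and 0.09 at OE (adjusted p = 1 and 0.694), and *Rpl3* by 0.07 at Ctrl and −0.13 at OE (adjusted p = 0.994 and 0.357). The counts were thus divided differently between gene and copies in the 2 populations, and a difference of the sum was not detected. *Rps3a1* and its near copies were examined in the same way. *Rps3a1* made up 24.8% to 48.3% of the summed counts of *Rps3a1*, *Rps3a2* and *Rps3a3* in BV+ cells and 6.51% to 8.67% in BV− cells. The summed level was 1160 and 911 CPM in BV+ OE against 965, 777 and 886 CPM in BV− OE, which overlap, and the sum differed by 0.09 ± 0.13 at Ctrl and 0.24 ± 0.12 at OE (edgeR adjusted p = 1 and 0.223). Alone, *Rps3a2* was at 247 and 237 CPM in BV+ OE against 386, 292 and 377 CPM in BV− OE. For *Rpl29*, with at most 4 counts on its 3 rows, summing tests nothing. *Rpl30* has 67 to 192 counts on its 9 rows, and summed with them it differed by 1.64 at OE (adjusted p = 5.77e-05).

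**Figure D4:**
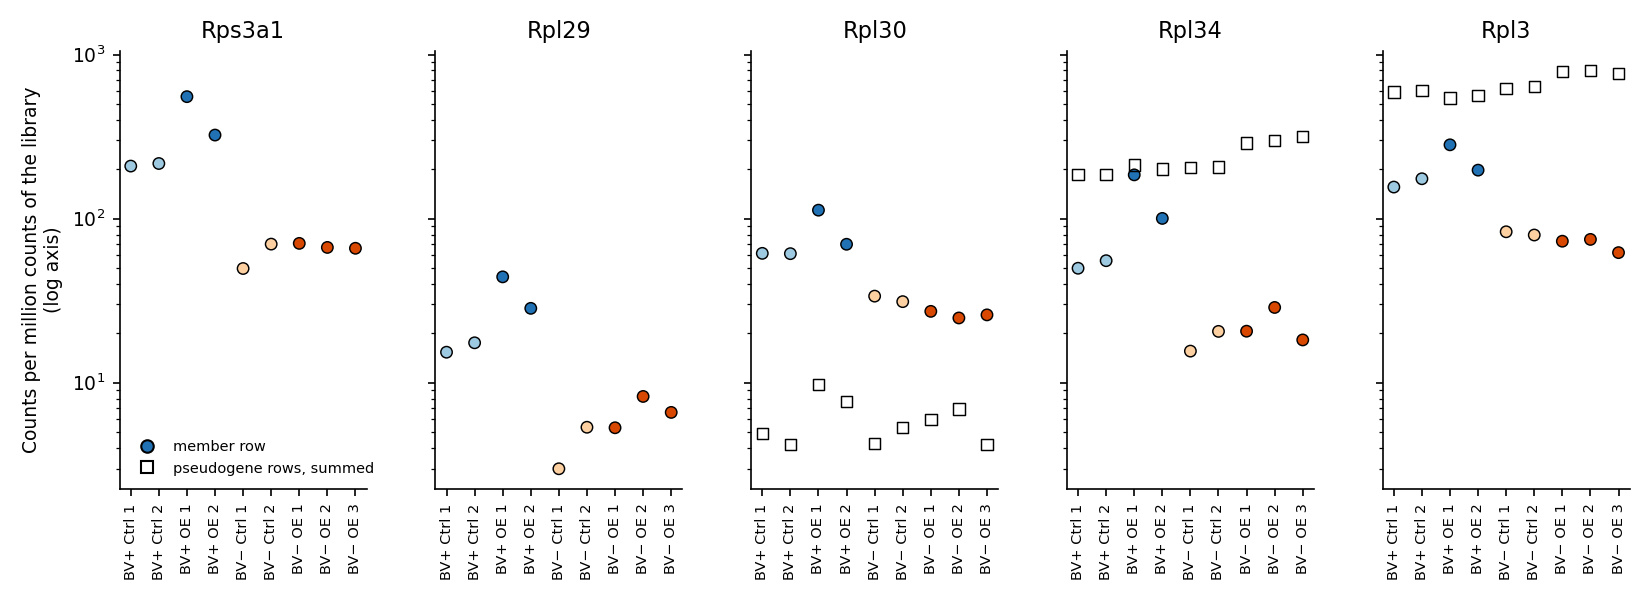
Counts scaled to 1000000 per library without TMM (log axis) for the 5 members that were higher in BV+ cells (filled circles, coloured by group) and for the sum of their pseudogene rows (open squares, drawn where any library reaches 1), in the 9 libraries. All 5 members are higher in the 4 BV+ libraries than in the 5 BV− libraries, while the squares of *Rpl34* and *Rpl3* are higher in BV− OE.

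The start sites of *Rps3a1*, *Rpl34* and *Rps7*, which had the largest rises in BV+ cells among called members with a promoter entry, are given for comparison with the windows above. The capital marks the annotated first base, after 15 bases of upstream sequence: *Rps3a1* at chr3:86142654-86142683, *Rpl34* in 2 entries at chr3:130730384-130730413 and chr3:130730323-130730352, and *Rps7* at chr12:28635939-28635968, all on the minus strand of GRCm38.p6.
Rps3a1: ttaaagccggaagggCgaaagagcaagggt
Rpl34, first entry: cgccttccctgacgtActtcctgtccggcg
Rpl34, second entry: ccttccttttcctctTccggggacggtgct
Rps7: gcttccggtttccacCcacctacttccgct
None of the 4 annotated starts opens a run of 5 pyrimidines that begins with C. Only 14 of the 76 member entries (18.4%) had such a run, so its absence does not set these genes apart. Whether the annotated starts are those used in these cells was not tested.

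Fibroblast genes moved with these 5 members. Of 20 fibroblast markers, chosen after the data were seen, 15 were tested, and 6 were higher in BV+ than in BV− cells at Ctrl and 11 at OE, beside 1.1% and 9.9% of all genes. With OE 10 rose and 1 fell in BV+ cells, and 1 rose and 1 fell in BV− cells, beside 6.24% higher and 1.78% lower, and 10.2% and 6.98%, of all genes. The one that fell in both was *Pdgfra*. The summed level of the 20 markers was 2418 to 2838 CPM in BV+ OE, 1682 to 1686 CPM in BV+ Ctrl, 1583 to 1710 CPM in BV− OE and 1418 to 1432 CPM in BV− Ctrl. Most of each sum was *Fn1*, at 1600 to 1630 CPM in BV+ OE, 1360 to 1370 CPM in BV+ Ctrl, 1430 to 1560 CPM in BV− OE and 1270 to 1310 CPM in BV− Ctrl. *Thy1* leaned the other way, at 3.5 and 2.39 CPM in BV+ OE against 3.43, 4.42 and 5.09 CPM in BV− OE. *Col1a2* alone was at 602 and 368 CPM in BV+ OE, 99.8 and 102 CPM in BV+ Ctrl, and 7.25 to 17.1 CPM in BV− cells. *Lum* and *S100a4* were under 0.3 CPM in every library. The part of such cells in the difference of the 5 members was not tested.

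The remaining members leaned the other way. The median log2 difference of BV+ from BV− cells was −0.11 at Ctrl, with 72 of 88 below 0, and −0.25 at OE, with 74 below 0, beside −0.01 and 0.00 over all genes tested. BV+ libraries were lower without overlap for 51 members (58%) at Ctrl and 44 (50%) at OE, against 25.4% and 19.5% of all genes. They were higher without overlap for 8 members at Ctrl and 5 at OE, against 22.6% and 20.3%. *Rpl21*, of the large subunit, had the largest negative difference at OE, with 116 and 106 CPM in BV+ against 187, 177 and 181 CPM in BV− cells (−0.71 ± 0.15, edgeR adjusted p = 0.00766). *Rpl39l* was at 30.1 and 30 CPM against 42.7, 45.9 and 44.4 CPM (−0.56 ± 0.12, edgeR adjusted p = 0.00893). *Rps3a2* (−0.54 ± 0.13), *Rpl10l* (−0.54 ± 0.13) and *Rpl13* (−0.52 ± 0.12) followed (edgeR adjusted p = 0.0159, 0.0163 and 0.0131). With the GC and length offsets the medians became −0.02 at Ctrl and −0.05 at OE. At OE 7 members were then higher and 7 lower, against 13.3% and 7.16% of all genes, so that the lower share was near the background, and *Rpl10l* lost the call (−0.35, adjusted p = 0.0559). Without 1 library at a time, the number called at OE ran from 7 without the second BV+ OE library to 27 without the first BV− OE library. It was 8 without the first BV+ OE or the third BV− OE library and 11 without any of the 4 Ctrl libraries. At Ctrl it was 0 without the first BV− Ctrl library, 2 without the second, and 1 without either BV+ Ctrl library.

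Genes that work with the ribosome were examined from lists chosen with earlier results known. Of 21 translation genes, all tested, 2 rose with OE in BV+ cells and 0 fell (edgeR; 1 lower at an unadjusted p under 0.05 and 1 by DESeq2), beside 6.24% and 1.78% of all genes. They were *Rack1*, a scaffold on the small subunit, at 2330 and 1990 CPM against 1570 and 1480 CPM (0.50 ± 0.13, edgeR adjusted p = 0.0414), and *Eif3f*, of the initiation factor eIF3 (0.54 ± 0.14, edgeR adjusted p = 0.0444). In BV− cells 9 rose and 1 fell, beside 10.2% and 6.98% of all genes. Among those that rose was *Eef1g*, of elongation factor 1 (0.60 ± 0.12, edgeR adjusted p = 0.0317), and the fall was of *Eif4a2*, an initiation helicase (−0.81 ± 0.19, edgeR adjusted p = 0.0322). The medians were 0.29 and 0.28. Between populations at OE, *Gas5*, a TOP RNA that hosts small nucleolar RNAs, was at 72.4 and 38.9 CPM in BV+ against 20.6, 18.8 and 10.5 CPM in BV− cells (1.75 ± 0.29, edgeR adjusted p = 0.0022).

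Mitochondrial ribosomal proteins, which serve the separate ribosome of mitochondria, were also examined. Of 78, all tested, 3 rose in BV+ cells and 21 in BV− cells, and 0 fell in either (edgeR; 0 lower at an unadjusted p under 0.05 and 0 by DESeq2), with medians of 0.23 and 0.28. Over all genes 6.24% rose in BV+ cells, a larger share than here, and 10.2% in BV− cells, a smaller one. The order in BV+ cells depended on the fit. With the GC and length offsets 15 of the 78 were higher in BV+ cells, against 8.65% of all genes. In BV− cells 16 were higher, against 2.86%. DESeq2 called 11 higher in BV+ cells, beside 1504 of all 16903 genes, and 22 in BV− cells, beside 2041. In each population 70 of the 78 lay above 0. *Mrpl55* was at 26.3 and 24.9 CPM in BV+ OE against 15.2 and 15.8 CPM (0.72 ± 0.13, edgeR adjusted p = 0.0169), and *Mrps34* was at 29.1, 37.5 and 32.9 CPM in BV− OE against 18.4 and 22.1 CPM (0.71 ± 0.16, edgeR adjusted p = 0.0317). With the offsets their medians were 0.11 and 0.08.

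Ribosome biogenesis genes assemble the subunits in the nucleolus. Of 71 tested, 0 passed in BV+ cells (edgeR; 9 higher and 11 lower at an unadjusted p under 0.05, 2 higher by DESeq2), and 15 rose and 3 fell in BV− cells, with medians of −0.12 and −0.11. For this list and the next, the background over all genes was 6.24% higher and 1.78% lower in BV+ cells. In BV− cells it was 10.2% higher and 6.98% lower. *Eif6*, which keeps the subunits apart, rose in BV− cells (0.66 ± 0.15, edgeR adjusted p = 0.0317), and *Gnl3*, a nucleolar GTPase, fell (−0.59 ± 0.18, edgeR adjusted p = 0.0479). Of 18 regulators of ribosomal protein synthesis, 0 passed in BV+ cells (edgeR; 2 higher and 2 lower at an unadjusted p under 0.05, 2 lower by DESeq2). In BV− cells 3 rose, led by *Maf1*, a repressor of RNA polymerase III (0.65 ± 0.14, edgeR adjusted p = 0.0317), and 2 fell, *Larp4* (−0.82 ± 0.22, edgeR adjusted p = 0.0374) and *Rps6kb1*, the S6 kinase gene (−0.76 ± 0.18, edgeR adjusted p = 0.0317). Between populations at Ctrl, 0 genes of these 4 lists passed (edgeR; at an unadjusted p under 0.05, 2 biogenesis and 3 mitochondrial genes were lower, and DESeq2 called 0). At OE, 11 of the 71 biogenesis genes, 2 regulators and 2 mitochondrial ribosomal protein genes were lower in BV+ cells, beside 3.85% of all genes. *Polr1b*, of RNA polymerase I, was at 133 and 148 CPM in BV+ OE against 179, 203 and 193 CPM in BV− OE (−0.45 ± 0.10, edgeR adjusted p = 0.0127).

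**Figure D5:**
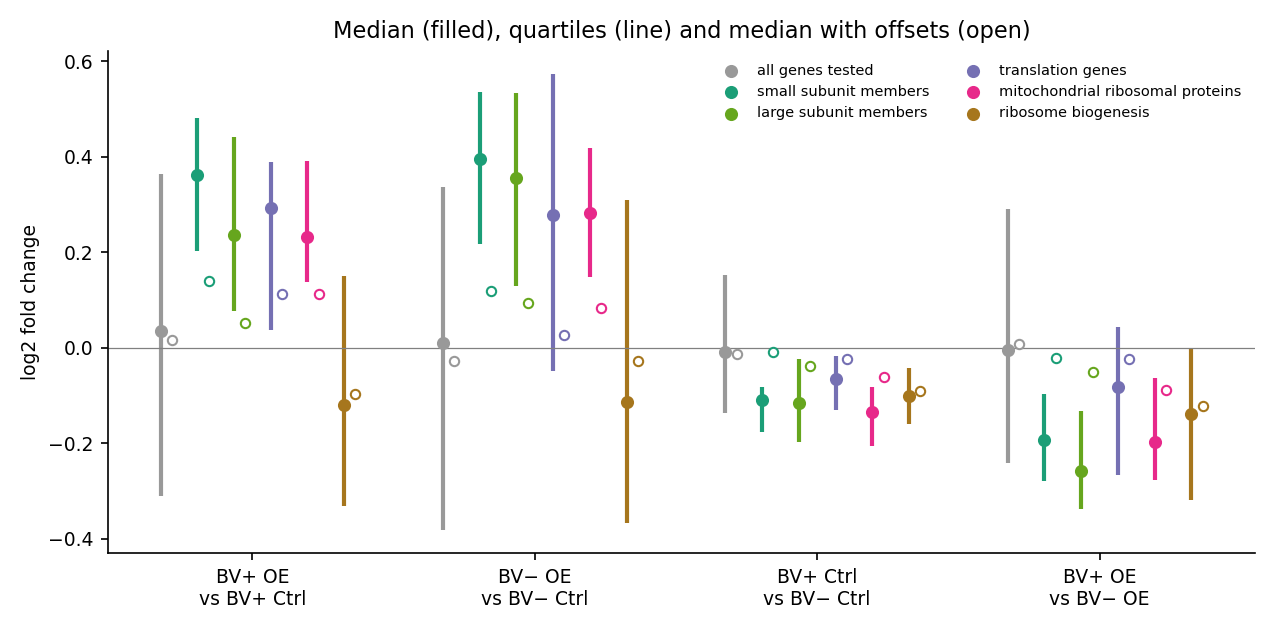
Median log2 fold change (filled points) with quartiles (lines) of all genes tested, of the small and large subunit members and of 3 related lists in 4 comparisons, with the median under GC and length offsets as open points. In both OE comparisons the members' medians of 0.24 to 0.39 lie above that of all genes and come down to 0.05 to 0.14 with the offsets.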

How the data were processed

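RNA-seq of 9 libraries was analysed from tables that the authors deposited, made by mapping to GRCm39 with HISAT2 2.0.1 and counting with HTSeq 0.6.1. The deposited raw counts per gene are not normalized and served all tests, and the FPKM that the authors deposited, calculated from the same counts, were used only for levels between genes. Strand use in counting is not given in the sources used here. The members and all gene lists were chosen with earlier results of these data known.

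Counts were fitted in R 4.3.3 with edgeR 4.0.16 (TMM factors of 0.969 to 1.03, filterByExpr, 4 group terms, two-sided quasi-likelihood F test, Benjamini-Hochberg over 16903 genes), which was tested on simulated data. CPM are counts scaled to 1000000 per library after TMM, and the SE is the log2 fold change divided by the root of F. Named members were a list by role, the paralogs and their parents, the 5 largest rises and falls past an adjusted p of 0.05, and the 3 highest and lowest levels. Genes of related lists were the 2 largest in each direction, shown in part. *Rpl37a* and *Rpl10a* were added after their values were seen. Alternatives were DESeq2 1.42.0, other scalings and filters, thinned counts, only the groups compared, the replicate number as a block, each library left out, offsets for GC content and length (smooth terms with 5 degrees of freedom each, from a GRCm38 annotation holding 98.6% of the genes tested), and the cut-offs used in the study (log2 fold change beyond 0.58 in either direction, p below 0.05 before adjustment). Summing members with rows named after them with -ps, summing *Rps3a1* with its near copies, and a crossed block, were added after seeing the data. Total counts limit precision through counting error only. Values of single genes that are withheld are not reported here, though they stay in the counts and medians.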

Additional observations from a re-analysis of the deposited data

How the results depend on the processing

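With OE in BV+ cells 24 members were called, and 9 with library size alone or with upper-quartile factors, 39 without a filter on low counts, 41 with only the groups compared, 0 with the replicate block and 10 at the study's threshold. In BV− cells 45 were called, and 0 with only the groups compared, 0 with the replicate block, 17 with GC and length offsets and 16 at the study's threshold. Between populations at Ctrl 4 were called, and 9 with only the groups compared and 2 with pseudogene rows summed. At OE 18 were called, and 6 with only the groups compared, with the replicate block or at the study's threshold. For the difference of the OE effects 0 were called, and 4 without a filter or at the study's threshold. DESeq2 called 35, 50, 5, 18 and 0 in this order. Over all genes tested, DESeq2 called 1504 higher and 602 lower with OE in BV+ cells, and 2041 and 1984 in BV− cells. Between populations it called 297 and 6 at Ctrl and 1660 and 659 at OE, and for the difference 23 and 0. For the other settings, apart from the offsets and the study's threshold, the share over all genes is not given here. Those counts of members therefore have no background beside them. With GC and length offsets the members' medians were 0.10, 0.097, −0.023, −0.051 and −0.024, and the last was −0.032 with scaling without the members or with a mean of at least 10 counts. The causes of these changes were not tested. The fit with only the groups compared also holds fewer libraries.

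With single libraries left out, the calls ranged from 0 to 44 (median 0.19 to 0.48), 0 to 53 (0.31 to 0.46), 0 to 5 (−0.19 to −0.083), 7 to 27 (−0.33 to −0.085) and 0 to 0 (−0.20 to 0.071). With the offsets *Rpl11* (−0.086), *Rpl38* (−0.19), *Rps15* (−0.076), *Rps6* (−0.077), *Rps4l* (−0.16) and *Rps27* (−0.0076) changed sign in BV+ cells, and *Rps15* (−0.018), *Rps27a* (−0.10), *Rpl7l1* (−0.0021), *Rps4l* (−0.080), *Rpl34* (−0.10) and *Rpl10a* (−0.41) in BV− cells. Summed with pseudogene rows, *Rps6* (−0.00055) and *Rps13* (0.17) changed sign in BV+ cells, *Rpl10* (0.035), *Rpl3* (0.30) and *Rps13* (0.35) in BV− cells, and *Rpl3* between populations at OE (−0.13) and in the difference of the OE effects (−0.20). *Rps6* was also negative in BV+ cells with library size alone (−0.015), upper-quartile factors (−0.0097) or only the groups compared (−0.0077). In BV− cells *Rpl7l1* was negative with DESeq2 (−0.0068), its size factors (−0.0067), library size alone (−0.037), scaling without the members (−0.0088), no filter (−0.0040) or a mean of at least 10 counts (−0.017), and *Rps27a* with library size alone (−0.00011). With the replicate block *Rps6* (0.019) and *Rpl10* (0.093) were positive in BV− cells. With single libraries left out, values that changed sign in BV+ cells ranged from −0.047 to 0.15 (*Rps6*), −0.0056 to 0.47 (*Rps27a*), −0.30 to 0.080 (*Rpl10*), −0.43 to 0.20 (*Rpl3l*), −0.082 to 0.013 (*Rpl7l1*) and −0.033 to 0.32 (*Rpl22l1*). In BV− cells they ranged from −0.16 to 0.11 (*Rps6*), −0.21 to 0.31 (*Rps27a*), −0.11 to 0.087 (*Rpl10*), −0.27 to 0.083 (*Rpl3l*), −0.072 to 0.053 (*Rpl7l1*) and −0.021 to 0.48 (*Rps3a1*). Of these values, those of *Rps4l* and *Rps15* in BV− cells and of *Rpl3* between populations at OE had been past the threshold. Without the retained paralogs the share of counts was lower in every library. It was then 4.845% and 4.229% in BV+ OE and 3.709% and 3.591% in BV+ Ctrl. In BV− cells it was 4.879%, 5.531% and 4.951% in OE and 3.748% and 3.993% in Ctrl.

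Same-numbered libraries had correlations of their deviations of −0.03 (BV+ OE and Ctrl) and of 0.20 and 0.24 (BV− OE and Ctrl). The correlations were −0.10 between Ctrl of both populations, and −0.14 and −0.30 between OE of both. With so few libraries per group, these values cannot decide whether same-numbered libraries shared a culture or batch. Pairing the Ctrl libraries crosswise, as an added replicate block, called 2 members. Of 1533 values of single genes under other settings, 1285 kept their direction and side of the threshold, 171 lost the call, 46 gained it and 31 changed sign.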
